A study of Rattus norvegicus with 12 samples.

Results

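Kupffer cells are the resident macrophages of the liver, and 8 genes that mark them were followed through the rat liver data: Clec4f, Cd5l, Vsig4, Aif1, Csf1r, Pltp, Id3 and Nr1h3. The genes were listed by name, and all 8 were found among the 32883 genes of the deposited tables. The study profiled healthy male Dark Agouti (DA) and Lewis (LEW) rats to map the liver cell types of both strains. Total liver homogenate (TLH) cells freed by collagenase digestion came from 2 DA and 2 LEW rats (10x Genomics version 2 chemistry), single nuclei from frozen liver came from 2 DA and 2 LEW livers (version 3 chemistry), and immune-enriched cells came from 1 DA and 1 LEW rat (version 3 chemistry). In addition, 2 sections of Wistar rat liver had been placed on Visium slides, which count RNA in small spots that each cover several cells. The labels put the TLH rats at 8 to 10 weeks of age, whereas the library names read 10 weeks for DA and 13 weeks for LEW. The study's text gives a higher age and describes the strains as age-matched, so the ages are not settled, and a part of age in the strain comparison was not tested. No rat was treated or genetically altered.

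Kupffer cells line the hepatic sinusoids, take up particles, complement-coated microbes and old red cells from portal blood, and recycle their iron. Their identity depends on signals from neighbouring endothelial, stellate and parenchymal cells, among them CSF1, Notch ligands and TGF-beta family proteins, and on the lineage factor PU.1 (encoded by Spi1) together with the lipid-sensing nuclear receptor LXR-alpha. The listed genes span these functions. Clec4f encodes a C-type lectin of rodent Kupffer cells, Cd5l a secreted scavenger-receptor protein also called AIM, and Vsig4 the complement receptor CRIg. Aif1 encodes the actin-binding protein Iba1 of many macrophages, and Csf1r the receptor for CSF1 and IL-34 on which macrophages depend. Pltp, encoding phospholipid transfer protein, is a known LXR target, Nr1h3 encodes LXR-alpha itself, and Id3 encodes an inhibitor of DNA binding by basic helix-loop-helix factors.

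Promoter sequences from 250 bases before to 50 bases after the annotated start were held by RefSeq (rat build GRCr8) for 7 of the 8 genes, and Aif1 was not matched. The promoters of the 3 genes with the largest differences from other myeloid cells, together with that of the LXR target Pltp, are given here 5′ to 3′ because these genes differed together in the data. Capitals mark the purine-box motif GAGGAA of PU.1 and other ETS factors and the nuclear receptor core motif AGGTCA, each searched on both strands (the reverse strand reads TTCCTC and TGACCT).
Clec4f, chr4:117696358-117696657, minus strand: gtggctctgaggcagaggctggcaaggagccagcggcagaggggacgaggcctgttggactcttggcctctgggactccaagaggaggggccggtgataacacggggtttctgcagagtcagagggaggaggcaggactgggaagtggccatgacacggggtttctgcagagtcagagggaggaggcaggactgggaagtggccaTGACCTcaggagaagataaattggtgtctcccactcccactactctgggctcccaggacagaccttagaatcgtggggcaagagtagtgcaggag
Cd5l, chr2:175088665-175088964, plus strand: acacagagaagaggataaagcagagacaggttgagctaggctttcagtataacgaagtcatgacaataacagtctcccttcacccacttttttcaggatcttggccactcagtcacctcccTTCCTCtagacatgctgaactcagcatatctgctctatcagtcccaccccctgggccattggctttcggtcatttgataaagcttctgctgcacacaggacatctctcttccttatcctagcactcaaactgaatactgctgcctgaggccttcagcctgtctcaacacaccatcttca
Vsig4, chrX:65179659-65179958, minus strand: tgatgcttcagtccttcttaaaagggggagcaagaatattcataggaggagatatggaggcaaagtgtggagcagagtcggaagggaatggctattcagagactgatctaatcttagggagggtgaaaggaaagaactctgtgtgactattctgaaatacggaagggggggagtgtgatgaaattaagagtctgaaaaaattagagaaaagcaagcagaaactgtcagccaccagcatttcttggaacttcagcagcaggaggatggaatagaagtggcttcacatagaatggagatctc
Pltp, chr3:174011933-174012232, minus strand: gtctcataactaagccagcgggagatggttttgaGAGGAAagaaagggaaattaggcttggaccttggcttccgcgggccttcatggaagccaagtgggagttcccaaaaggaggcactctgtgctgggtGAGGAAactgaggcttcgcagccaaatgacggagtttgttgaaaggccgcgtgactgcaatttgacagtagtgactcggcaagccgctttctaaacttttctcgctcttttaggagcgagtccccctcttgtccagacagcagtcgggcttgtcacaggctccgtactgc

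GAGGAA was present in 27.6% of 33469 promoters of the same length, and matched 1 time in Cd5l, 2 times in Csf1r, 2 times in Pltp and 2 times in Id3, and not in Clec4f, Vsig4 or Nr1h3. AGGTCA was present in 16.2% of promoters, and among the 7 genes matched only in Clec4f, 1 time. TGCTGA, a core motif of MAF factors, was present in 18.4% of promoters and matched 2 times in Cd5l and 1 time in Vsig4. TATAAA, present in 14.2% of promoters, matched in none of the 7. The E-box CANNTG of basic helix-loop-helix factors, present in 72.1% of promoters, matched 1 time each in Cd5l, Csf1r and Nr1h3, 2 times in Pltp, and not in Clec4f, Vsig4 or Id3. The Clec4f promoter also held a stretch of 54 bases that occurred 2 times in direct succession, starting 151 and 97 bases before the start site, and a repeat of at least that length was found in 95 of the 33469 promoters (0.284%). The longest repeat in the other 6 promoters was 11 bases. These matches describe letters in a window and were not measured as binding sites.

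Cells were assigned to Kupffer cells by markers other than the 8 genes. A cell needed UMIs (unique molecular identifiers, each standing for 1 captured transcript) of at least 3 of Marco, Cd163, C1qa, C1qb and C1qc, at least 1 of them Marco or Cd163, and these 5 genes had to make up at least 0.3% of its UMIs. This gave 284, 416, 227 and 247 Kupffer cells in TLH DA-1, DA-2, LEW-1 and LEW-2, 35, 50, 24 and 39 Kupffer nuclei in the nuclei libraries in the same order, and 60 and 105 Kupffer cells in the immune-enriched DA and LEW libraries. They were 1487 of the 39401 cells and nuclei kept in all. Other classes were set in the same way from their own markers: myeloid cells positive for Lyz2, endothelial cells, mesenchymal cells (stellate cells and fibroblasts), hepatocytes, NK, T and B cells, plasmacytoid dendritic cells and erythroid cells. Median depth was 2073 to 3720 UMIs per TLH Kupffer cell, 1152 to 1980.5 per Kupffer nucleus, and 11728.5 and 12466 per immune-enriched Kupffer cell in DA and LEW. Levels are given as CPM, the UMIs of a gene per 1000000 UMIs summed over the cells of 1 class in 1 library.

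The gate was checked against Kupffer markers it did not use, of which Timd4 was left out of the check. Hmox1 (haem oxygenase), Slc11a1 (a phagosomal metal transporter) and Cd68 summed to 1377 to 1952 CPM in the TLH Kupffer cells, against 29.0 to 47.7 CPM in hepatocytes. This sum was set only against hepatocytes, which were chosen to be low in the gate genes, so the contrast was favoured in advance. It does not show how the gate separates Kupffer cells from other myeloid cells. The folds of Hmox1 and Slc11a1 against Lyz2 myeloid cells are given below, and that of Cd68 is not given. Among cholangiocyte markers, of which Epcam, Krt7, Sox9 and Anxa4 are not given here, Krt19 had no UMI in Kupffer cells of any library. The 3 T-cell genes Cd3e, Cd3g and Cd3d had none either, but cells with 2 of them had been left out as past 2 gates. RNA from hepatocytes was present: 9 hepatocyte genes such as Alb and Apoa1 made up 4.13% to 5.59% of the UMIs of TLH Kupffer cells and 2.98% to 4.20% in nuclei, but 0.0603% and 0.705% in the immune-enriched DA and LEW libraries. At 1000 UMIs per cell, 1.25% to 3.28% of the TLH mesenchymal cells showed 4 or more of the 8 genes. How far free RNA or mixed cells set the low levels in other classes was not tested.

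**Figure D1:**
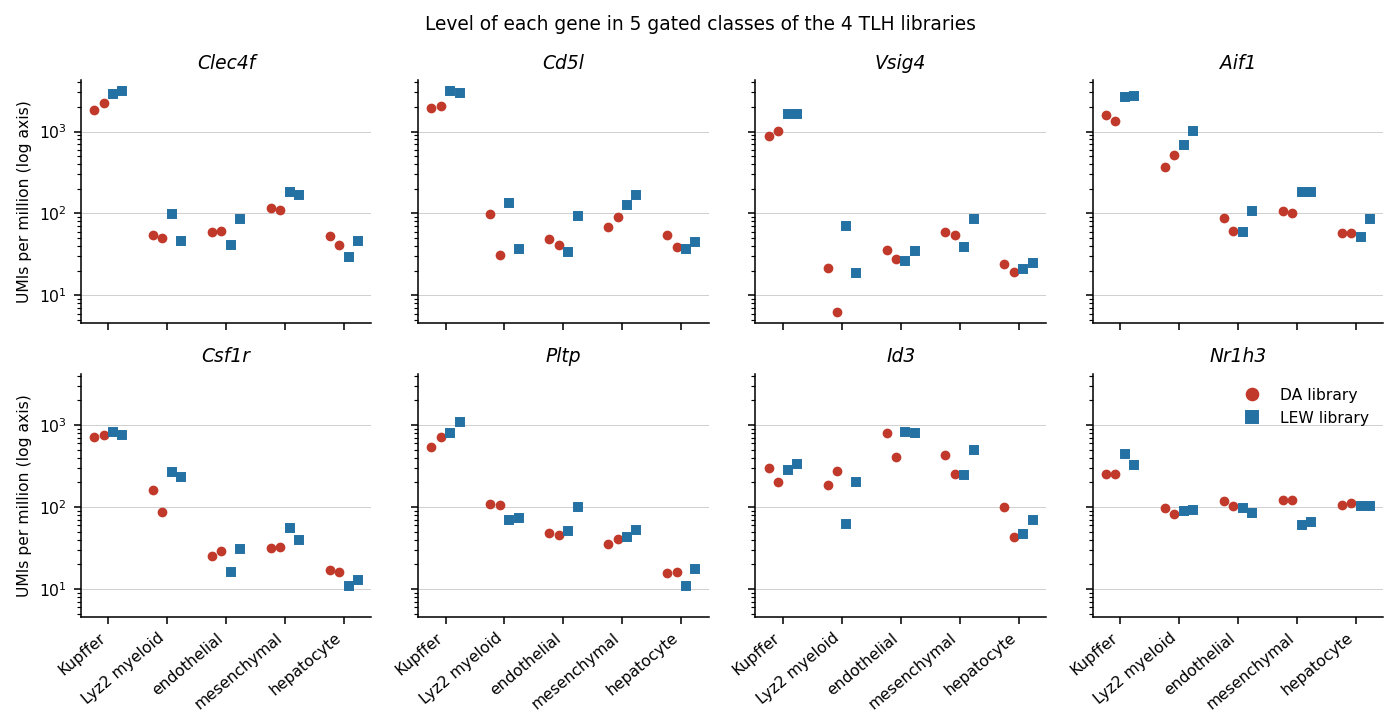
Level of each of the 8 genes (CPM, log axis) in Kupffer cells, Lyz2 myeloid cells, endothelial cells, mesenchymal cells and hepatocytes of the TLH libraries, 1 point per library with DA and LEW in separate colours. Kupffer cells lie above the other 4 classes in every library for all genes but Id3, which is highest in endothelial cells at 412 to 834 CPM.

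The closest comparison was with the other myeloid cells of the same livers. Kupffer cells had higher levels than Lyz2 myeloid cells for 7 of the 8 genes in the TLH libraries, by 2.99-fold for Aif1 to 41.0-fold for Vsig4. Id3 was the exception. Lyz2 myeloid cells, set by UMIs of Lyz2 (lysozyme) and of genes such as S100a4, S100a6 and Coro1a, numbered 44, 44, 47 and 36 in TLH DA-1, DA-2, LEW-1 and LEW-2. Over all 3813 genes tested 15.9% were called, 8.29% higher in Kupffer cells and 7.63% lower (edgeR quasi-likelihood test with the library as a block, Benjamini-Hochberg adjusted p below 0.05), and the median log2 fold change was 2.50 over the 8 genes against 0.01 over all genes.

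The surface lectin, the scavenger protein and the complement receptor showed the largest separation. Clec4f was at 1838, 2219.6, 2883 and 3081 CPM in Kupffer cells of TLH DA-1, DA-2, LEW-1 and LEW-2, and at 54.0, 49.9, 97.7 and 46.5 CPM in Lyz2 myeloid cells. The lowest Kupffer library was above the highest Lyz2 myeloid library by a wide margin, and edgeR gave a log2 fold change of 5.21 (SE 0.18, adjusted p = 1.78e-173). The fit had 3 residual degrees of freedom, and edgeR also draws on the spread of other genes. P-values this small therefore do not measure the spread between the rats alone. Over the 14 alternatives (edgeR or DESeq2) the highest adjusted p was 5.96e-09 for Clec4f and 0.0136 for Aif1. Mesenchymal cells held 109.9 to 181 CPM, above each of the Lyz2 myeloid values, and the part of mixed cells in this level was not tested. Cd5l stood at 1916, 2048, 3094 and 2918 CPM in Kupffer cells and 97.2, 31.2, 133 and 37.2 CPM in Lyz2 myeloid cells. The groups did not overlap, with a log2 fold change of 5.00 (SE 0.18, edgeR adjusted p = 1.52e-162). Vsig4 was at 883, 1025, 1631 and 1614 CPM against 21.6, 6.24, 69.8 and 18.6 CPM, the latter resting on 1 to 10 UMIs per library. Again each Kupffer library exceeded each Lyz2 myeloid library, with a log2 fold change of 5.36 (SE 0.23, edgeR adjusted p = 2.24e-118). By size of fold change Vsig4, Clec4f and Cd5l ranked in places 8, 11 and 13 of the 3813 genes. The Lyz2 myeloid values of Clec4f and Cd5l also rested on few UMIs, so these folds and ranks are imprecise. Over the 14 alternatives the log2 fold change ran from 4.19 to 5.99 for Clec4f and from 4.08 to 5.34 for Cd5l. For Vsig4 it ran from 3.74 to 6.23.

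Aif1 and Csf1r, genes of macrophages in general, were shared with the Lyz2 myeloid cells at a lower level. Aif1 was at 1585, 1349, 2658 and 2695 CPM in Kupffer cells and at 367, 512, 691 and 1024 CPM in Lyz2 myeloid cells, whereas endothelial cells held 58.7 to 106 CPM. Both myeloid classes were thus above the other classes, and Kupffer cells were higher than Lyz2 myeloid cells in each library (log2 fold change 1.58, SE 0.12, edgeR adjusted p = 1.50e-34). Csf1r was at 719, 765, 823 and 752 CPM in Kupffer cells and at 162, 87.4, 265 and 233 CPM in Lyz2 myeloid cells. The Kupffer level varied little between the rats, and the difference was 1.98 on the log2 scale (SE 0.17, edgeR adjusted p = 1.49e-30).

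Among the lipid-handling genes, Pltp was at 543, 714, 810.5 and 1079 CPM in Kupffer cells and 108, 106, 69.8 and 74.5 CPM in Lyz2 myeloid cells. Its log2 fold change of 3.02 (SE 0.19, edgeR adjusted p = 1.39e-52) lay between those of the general macrophage genes and those of Clec4f, Cd5l and Vsig4. Nr1h3 was at 255, 256, 440.2 and 322 CPM in Kupffer cells against 97.2, 81.2, 90.7 and 93.1 CPM, again without overlap (log2 fold change 1.72, SE 0.22, edgeR adjusted p = 2.49e-13). For these 7 genes the call held in all 14 alternative analyses, which are listed in the methods.

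Id3 was not called between the 2 myeloid classes of the TLH libraries. It was at 302, 204, 285 and 332 CPM in Kupffer cells and 184, 275, 62.8 and 205 CPM in Lyz2 myeloid cells, where the LEW-1 value rested on 9 UMIs. The ranges overlapped, since the Lyz2 myeloid cells of DA-2 exceeded the Kupffer cells of the same rat. The log2 fold change was 0.49 (SE 0.20, 95% interval 0.09 to 0.90, edgeR adjusted p = 0.0928). Without TLH DA-2 it was 1.03 (adjusted p = 4.79e-05), and over all 14 alternatives it ran from 0.11 to 1.03 with a call in 4.

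Against endothelial cells, 7 of the 8 genes were higher in Kupffer cells and Id3 was lower, among 6194 genes of which 39.7% were called, 19.6% higher and 20% lower. Id3 was at 811, 412, 834 and 809 CPM in the endothelial cells of TLH DA-1, DA-2, LEW-1 and LEW-2. All 4 values were above those of the Kupffer cells, and the level was 2.44-fold lower in Kupffer cells (log2 fold change −1.28, SE 0.08, edgeR adjusted p = 3.54e-16). The other genes were higher in Kupffer cells by log2 fold changes of 5.65 for Cd5l, 5.37 for Clec4f, 5.36 for Vsig4, 4.95 for Csf1r, 4.72 for Aif1, 3.79 for Pltp and 1.64 for Nr1h3, with edgeR adjusted p from 3.05e-26 to 0.00173. These calls held in all 14 alternatives.

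Against mesenchymal cells, which numbered 320, 409, 92 and 61 in TLH DA-1, DA-2, LEW-1 and LEW-2, the order was similar. Of 5552 genes tested 36.9% were called, 19.3% higher in Kupffer cells and 17.6% lower, and 7 of the 8 genes were higher. The log2 fold changes were 4.50 for Cd5l, 4.35 for Csf1r, 4.26 for Vsig4, 4.10 for Clec4f, 4.08 for Pltp, 3.80 for Aif1 and 1.44 for Nr1h3. Id3 was at 432, 249.9, 246 and 495 CPM in mesenchymal cells. These values overlapped with the Kupffer values, and Id3 was lower in Kupffer cells by a small margin (log2 fold change −0.35, SE 0.11, edgeR adjusted p = 0.012). That call was lost in 5 of 14 alternatives, among them leaving out TLH DA-1 (−0.29, adjusted p = 0.148) or TLH LEW-2 (−0.29, adjusted p = 0.0813).

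Against hepatocytes all 8 genes were higher in Kupffer cells, among 8976 genes of which 47.6% were called, 23.1% higher and 24.6% lower. The log2 fold changes were 5.57 for Clec4f, 5.51 for Cd5l, 5.51 for Vsig4, 5.47 for Csf1r, 5.38 for Pltp and 4.70 for Aif1. Id3 followed at 1.88 (SE 0.13, edgeR adjusted p = 1.86e-12). Nr1h3, known to act in hepatocytes as well, was at 107, 112, 103 and 103 CPM there and had the smallest difference of the 8 (1.25, SE 0.13, edgeR adjusted p = 4.74e-09). When only library totals were used in place of TMM scaling, 70.4% rather than 48.4% of the genes called were higher in Kupffer cells, the median of all genes moving from −0.05 to 0.26 on the log2 scale, and the direction of none of the 8 genes changed.

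Ordered by level, Kupffer cells thus came first for 7 genes in the TLH libraries. For Aif1 and Csf1r, Lyz2 myeloid cells came second. For Aif1 their range of 367 to 1024 CPM lay above the 100.1 to 182 CPM of mesenchymal cells, and for Csf1r their 87.4 to 265 CPM lay above the 32.0 to 56.2 CPM there. For Clec4f mesenchymal cells came second (109.9 to 181 CPM), above the overlapping ranges of Lyz2 myeloid and endothelial cells. The study set aside mesenchymal subclusters with myeloid or endothelial genes, Clec4f among them, which appeared to it to come from contaminating cells. No such step was taken here, and the part of such cells in the Clec4f level was not tested. For Cd5l and Vsig4 the range of Lyz2 myeloid cells overlapped with those of the other 3 classes, and for Nr1h3 endothelial cells (85.1 to 118 CPM), hepatocytes (103 to 112 CPM) and Lyz2 myeloid cells (81.2 to 97.2 CPM) lay close together. For Id3 endothelial cells came first in each library. The ranges of mesenchymal, Kupffer and Lyz2 myeloid cells overlapped and had no clear order, and that of hepatocytes (42.7 to 100.4 CPM) overlapped with the lowest Lyz2 myeloid library. NK cells held 42.9 to 89.1 CPM of Id3.

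The nuclei libraries also separated Kupffer nuclei from parenchymal and endothelial nuclei, and the folds were not tested against those of TLH. Of 8184 genes tested against hepatocyte nuclei 34.4% were called, 12.9% higher in Kupffer nuclei and 21.5% lower, and all 8 genes were higher. Csf1r led, at 1264, 2184, 1565 and 1392 CPM in Kupffer nuclei of DA-1, DA-2, LEW-1 and LEW-2 and 9.15, 10.9, 12.9 and 14.0 CPM in hepatocyte nuclei. The groups did not overlap, and the TMM-scaled log2 fold change was 6.29 (SE 0.33, edgeR adjusted p = 7.61e-76), or 7.10 with library totals only. Clec4f (6.20) and Cd5l (6.23) were close to it, and Vsig4, Pltp and Aif1 followed at 5.58, 5.37 and 5.09 on the log2 scale. Nr1h3 was at 239, 329, 309 and 391 CPM in Kupffer nuclei and 101, 118, 119 and 111 CPM in hepatocyte nuclei. The groups did not overlap, and the TMM-scaled log2 fold change was 0.72 (SE 0.29, edgeR adjusted p = 0.0368), against 1.52 with library totals only (adjusted p = 1.90e-06). The call was lost in 7 of 13 alternatives, with adjusted p of 0.0763, 0.0858 and 0.176 without nuclei DA-1, DA-2 or LEW-2. Library totals in place of TMM moved the median of all genes here from −0.33 to 0.47 and the share of calls that were higher from 37.5% to 78.9%, while DESeq2 gave a share of 48.5%.

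Against endothelial nuclei, with 2521 genes tested and 23.8% called (12.5% higher, 11.3% lower), 7 genes were again higher and Id3 lower. Endothelial nuclei held 705, 981, 419 and 757 CPM of Id3, and Kupffer nuclei 307, 314, 193 and 323 CPM. As in the TLH libraries no value overlapped, and the log2 fold change was −1.29 (SE 0.28, edgeR adjusted p = 0.000243), next to −1.28 in TLH. The other log2 fold changes were 5.89 for Cd5l, 5.88 for Csf1r, 5.73 for Vsig4, 5.63 for Clec4f, 4.59 for Aif1, 3.71 for Pltp and 2.21 for Nr1h3. Mesenchymal nuclei held 596 to 916 CPM of Id3. Only 2 to 5 nuclei per library met the Lyz2 myeloid gate, too few for a comparison.

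In the immune-enriched libraries, with 1 rat per strain, there is no replicate and no test, and intervals cover counting error only. Clec4f was at 5995 CPM in DA and 7805 CPM in LEW Kupffer cells, against 2 UMIs in the Lyz2 myeloid cells of each library. Those 2 UMIs correspond to 3.16 and 6.12 CPM, and the ratio of Kupffer to Lyz2 myeloid cells was 1898 (95% interval 475 to 7592) in DA and 1276 (319 to 5104) in LEW. Cd5l was 541 times (243 to 1205) and 463 times (193 to 1112) higher in Kupffer cells, and Vsig4 had 1 UMI in the Lyz2 myeloid cells of each library. The ratios were far lower for Aif1, at 3.24 (2.998 to 3.498) in DA and 2.63 (2.42 to 2.87) in LEW, and for Csf1r, at 3.55 (3.13 to 4.03) and 2.40 (2.11 to 2.73). The TLH folds were 2.99 and 3.94 for these genes. Pltp had ratios of 7.50 and 12.3, and Nr1h3 of 19.0 (11.3 to 31.9) and 6.86 (4.64 to 10.1). Id3 was 2.24 times (1.90 to 2.63) and 4.32 times (3.04 to 6.13) higher than in Lyz2 myeloid cells, and at 0.3 and 0.222 of the endothelial level.

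Counted cell by cell, the genes differed in how many Kupffer cells showed them. After each cell had been thinned to 1000 UMIs, Clec4f was seen in 79.2%, 82.0%, 90.3% and 91.5% of Kupffer cells of TLH DA-1, DA-2, LEW-1 and LEW-2, against 3.0% to 7.6% of hepatocytes and 4.24% to 5.47% of endothelial cells. Before thinning the Clec4f share in DA-1 was 95.8%. The thinned shares ran from 75.5% to 91.6% for Cd5l, 54.2% to 74.0% for Vsig4, 58.2% to 79.4% for Aif1, 46.8% to 56.4% for Csf1r and 38.7% to 61.9% for Pltp. All of these are far above the shares in hepatocytes, which did not exceed 9.0% for any of them. Nr1h3 was seen in 17.3% to 34.8% of Kupffer cells but also in 7.8% to 12.0% of hepatocytes, and Id3 in 15.4% to 27.5%, below the 31.8% to 53.4% of endothelial cells.

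Most Kupffer cells carried several of the genes together. At 1000 UMIs the median TLH Kupffer cell showed 4 of the 8 genes in DA-1 and DA-2 and 5 in LEW-1 and LEW-2, and 65.1%, 64.9%, 85.0% and 82.6% of cells showed 4 or more. The LEW shares were both above the DA shares. In nuclei the strains overlapped, with 71.4% and 74.0% of Kupffer nuclei in DA and 62.5% and 76.9% in LEW showing 4 or more. In the immune-enriched libraries the median was 6 in both strains, and 96.7% and 97.1% of cells had 4 or more. Lyz2 myeloid cells of TLH showed a median of 1 and hepatocytes of 0.

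A list of 50 genes tied to Kupffer cells or to the pathways of the 8 genes (CSF1, PU.1, LXR, TGF-beta and BMP, Notch and scavenging genes) was read beside them. Of all genes tested, 8.29% were higher and 7.63% lower against Lyz2 myeloid cells, and 19.6% and 20% against endothelial cells. The shares were 19.3% and 17.6% against mesenchymal cells, and 23.1% and 24.6% against hepatocytes. Of the 29 tested against Lyz2 myeloid cells 12 were higher in Kupffer cells, led by Hmox1 (4.67 on the log2 scale, SE 0.24, edgeR adjusted p = 4.08e-80), the transcription factor Maf (3.76), Slc11a1 (3.29), the F4/80 gene Adgre1 (3.13) and the mannose receptor Mrc1 (3.12). A further 3 were lower: Id2 (−1.61), the dendritic cell and monocyte factor Irf8 (−1.54) and Tgfb1 (−0.66). Over the alternatives 11 to 13 list genes were higher and 1 to 3 lower. Against endothelial cells 18 of 33 were higher, led by Spi1 (5.49), Adgre1 (5.35), Slc11a1 (5.22), Folr2 (5.05) and Cd68 (5.03), and 8 were lower. The lower ones were led by the niche signals Bmp2 (−4.42), the Notch ligand Dll4 (−3.96) and Csf1 (−2.59), the ligand of Csf1r, followed by the Notch target Hes1 (−0.90) and Maf (−0.70). Against mesenchymal cells 20 of 31 were higher, led by Slc11a1 (4.07), Cd68 (3.95), Hmox1 (3.87), Adgre1 (3.77) and Spi1 (3.73). The 3 lower genes were the BMP family ligand Gdf2 (−5.40, on 0 to 1 UMI per library in Kupffer cells), Zeb2 (−0.52) and Apoe (−0.32). Against hepatocytes 24 of 37 were higher, led by Folr2 (5.41), Slc11a1 (5.40), Cd68 (5.31), Adgre1 (5.17) and Gpnmb (5.03). The 4 lower genes were the lipid-synthesis genes Scd (−1.41) and Srebf1 (−0.95), both LXR targets, Apoe (−0.85) and Hes1 (−0.37).

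In nuclei 20 of 36 pathway genes were higher than in hepatocyte nuclei, led by Slc11a1 (7.25), Cd38 (6.51), Adgre1 (6.01), Folr2 (5.75) and Spi1 (5.71). Of all genes tested, 12.9% were higher and 21.5% lower against hepatocyte nuclei, and 12.5% and 11.3% against endothelial nuclei. The 4 lower genes were Apoe (−2.05), Scd (−1.86), Lpcat3 (−1.19) and Srebf1 (−1.03). Against endothelial nuclei 13 of 27 were higher, led by Slc11a1 (6.35), Adgre1 (5.61), Folr2 (5.16), Hmox1 (4.73) and Cd68 (3.82), and 5 were lower. Dll4, among the latter, had no UMI in Kupffer nuclei of any library against 24 to 120 UMIs in endothelial nuclei, and the others were Bmp2 (−5.78), Csf1 (−3.34), Mrc1 (−0.90) and Hes1 (−0.88).

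The genes most like each member were found by Pearson correlation of log2(CPM + 10) over 31 class-by-library sums of the TLH libraries, among 8501 genes. These sums share libraries and the Kupffer gate, and the values describe likeness only. Clec4f was closest to Rnase11 (0.94), Pla2g4a (0.94) and Hpgds (0.93), and Cd5l to Hpgds (0.95), AABR07035650.1 (0.95) and Rnase11 (0.95). Vsig4 was closest to Anxa3 (0.93), Rnase11 (0.92) and the hexokinase Hk3 (0.92). Aif1 was closest to Cd68 (0.96), Lpcat2 (0.94) and the Fc receptor gene Fcgr1a (0.94), and Csf1r to Fcgr1a (0.94), Axl (0.92) and Blvra (0.92). Pltp was closest to Cfp (0.93), Psap (0.92) and Slc11a1 (0.92). Nr1h3 was closest to the cholesterol transporter gene Abca1 (0.86), a known LXR target, then Smpdl3a (0.81), and Id3 to Rbms1 (0.86), Sectm1a (0.84) and Cd200r1 (0.83). Between members the correlation ran from 0.27 for Id3 with Nr1h3 to 0.94 for Clec4f with Vsig4.

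Strain was compared within Kupffer cells, with 2 rats on each side. In the TLH libraries Aif1, Vsig4 and Cd5l were called lower in DA, and none of the 8 genes was called higher. Of 6138 genes tested 5.13% were called, 2.93% higher in DA and 2.2% lower. These 315 genes became 126 with DESeq2, 51 with the replicate block, 125 without DA-1, 75 without DA-2 and 204 without LEW-2. The median log2 fold change was −0.54 over the 8 genes and 0.00 over all genes. These p-values rest on 2 rats per strain, and edgeR also draws on the spread of other genes.

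Aif1 was at 1585 and 1349 CPM in DA and 2658 and 2695 CPM in LEW. The strains did not overlap, and the level was 1.78-fold lower in DA (log2 fold change −0.83, SE 0.16, edgeR adjusted p = 0.00735). Vsig4 was at 883 and 1025 CPM in DA and 1631 and 1614 CPM in LEW, 1.66-fold lower (−0.73, SE 0.16, edgeR adjusted p = 0.0149). Cd5l was at 1916 and 2048 CPM against 3094 and 2918 CPM, 1.48-fold lower (−0.56, SE 0.15, edgeR adjusted p = 0.0494). In each of the 3 genes both DA rats were below both LEW rats. The share of all genes with this pattern was not counted, so it adds no support to the calls. None of the 3 calls held throughout: leaving out 1 library at a time, Aif1 lost its call without DA-2 (adjusted p = 0.0525) or LEW-2 (0.0997), Vsig4 without DA-1 (0.0862), LEW-1 (0.0759) or LEW-2 (0.172), and Cd5l without any 1 of the 4 (0.0775 to 0.323). Cd5l was called in only 7 of 15 alternatives, and also lost its call with DESeq2 (adjusted p = 0.164), the stricter gate (0.0816) and the limit of 1500 UMIs in LEW (0.129). With the replicate number as a block no member was called, with adjusted p of 0.0868 for Aif1, 0.102 for Vsig4 and 0.164 for Cd5l. The log2 fold changes stayed between −0.94 and −0.46 for the 3 genes over all 15 alternatives.

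Of the other members, Clec4f (−0.52, SE 0.16, edgeR adjusted p = 0.0867), Nr1h3 (−0.54, SE 0.18, edgeR adjusted p = 0.11) and Pltp (−0.55, SE 0.20, edgeR adjusted p = 0.131) had negative estimates with 95% intervals below 0 but did not pass the adjusted threshold. In Clec4f and Nr1h3 both DA values were below both LEW values, as they were in Pltp, again without a share over all genes to set this against. Csf1r was at 719 and 765 CPM in DA and 823 and 752 CPM in LEW, a difference of −0.05 with a 95% interval from −0.38 to 0.29. Id3 overlapped between the strains at 302 and 204 CPM against 285 and 332 CPM (−0.27, interval −0.71 to 0.17).

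Other quantities moved with strain in the same libraries. The 5 gate genes summed to 12019 and 13562 CPM in DA and 20395 and 21989 CPM in LEW, a gap in the direction of the members. Among them Cd163 did not share the gap, at 555 and 645 CPM in DA against 552 and 555 CPM in LEW. The part of the gate genes in the result was not tested. Median UMIs per Kupffer cell were 2073 and 3018 in DA against 3720 and 3132 in LEW, and the dissociation-response genes such as Fos and Jun summed to 964 and 1411 CPM in DA against 382 and 553 CPM in LEW. Hepatocyte genes made up 4.37% and 5.59% of UMIs in DA and 4.13% and 4.75% in LEW, so that they overlapped between strains. The lower UMI limit on cells was 1500 in DA-1 and 2000 in the other 3 libraries, and with a limit of 1500 in LEW as well Aif1 and Vsig4 were still called. Of the 33 pathway genes tested for strain, 5 were lower in DA, against 2.2% of all genes. Itgal, encoding the integrin chain CD11a, had 0 and 2 UMIs in Kupffer cells of TLH DA-1 and DA-2 and 163 and 123 in LEW-1 and LEW-2 (−7.16 on the log2 scale). The others were Folr2 (−1.02), Spi1 (−0.96), Cd68 (−0.93) and Srebf1 (−0.91). Gpnmb was the 1 gene that was higher (1.1, SE 0.23, edgeR adjusted p = 0.0128), where 2.93% of all genes were. How these calls fared in the alternatives is not given here gene by gene.

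**Figure D2:**
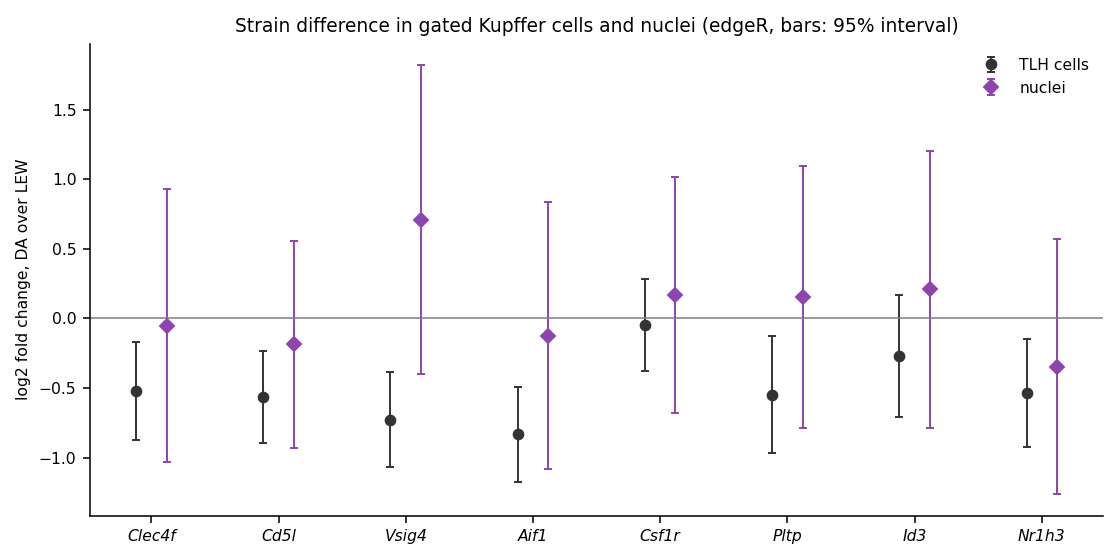
Log2 fold change of each of the 8 genes between DA and LEW (DA over LEW, vertical axis) in TLH Kupffer cells (circles) and Kupffer nuclei (diamonds), from edgeR, with 95% intervals as bars and a line at 0. In TLH the intervals of Clec4f, Cd5l, Vsig4, Aif1, Pltp and Nr1h3 lie below 0, while in nuclei the intervals of all 8 genes include 0.

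The nuclei did not show the strain differences seen in Aif1, Vsig4 and Cd5l, at lower depth. No gene of 1114 tested was called (0% called) by edgeR, 93 had an unadjusted p below 0.05, and DESeq2 called 3. More were called with the replicate number as a block, as given below. Vsig4 was at 478 and 972 CPM in DA nuclei and 329 and 526 CPM in LEW nuclei, so that its estimate had the opposite sign to that in TLH (0.71, 95% interval −0.40 to 1.82, edgeR adjusted p = 0.721). Aif1 was at 444 and 673 CPM in DA and 464 and 713 CPM in LEW (−0.12, interval −1.09 to 0.84), and Cd5l at 1946 and 3067 CPM against 2763 and 2734 CPM (−0.19, interval −0.93 to 0.56). Nr1h3 (−0.35), Clec4f (−0.05), Pltp (0.15), Csf1r (0.17) and Id3 (0.21) had edgeR adjusted p from 0.869 to 0.984, and no pathway gene was called. Itgal still had 0 and 3 UMIs in Kupffer nuclei of DA-1 and DA-2 and 25 and 21 in LEW-1 and LEW-2, the direction seen in TLH. The study also names Itgal among the strain genes of its myeloid nuclei. The strains overlapped in Vsig4, Aif1 and Cd5l, and the intervals of Aif1 and Cd5l include the TLH estimates. A test of whether the strain difference itself differed between TLH and nuclei called 0.121% of 6589 genes (0.0759% higher, 0.0455% lower) and none of the 8. Vsig4 had the smallest p of the 8 (difference −1.51 on the log2 scale, SE 0.39, unadjusted p = 0.000531, edgeR adjusted p = 0.135) and was called in 3 of 19 alternatives, among them the fits without nuclei DA-1 (−1.93, adjusted p = 0.00199) and without nuclei LEW-2 (−1.91, adjusted p = 0.0257). The other differences were −0.79 for Pltp, −0.78 for Aif1, −0.55 for Id3, −0.54 for Clec4f, −0.45 for Cd5l, −0.29 for Csf1r and −0.26 for Nr1h3, with edgeR adjusted p from 0.439 to 0.916.

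In the immune-enriched libraries, where 1 DA rat can be set beside 1 LEW rat, Clec4f was at 0.768 of the LEW level in DA (counting interval 0.740 to 0.797), Cd5l at 0.724 (0.696 to 0.754) and Vsig4 at 0.835 (0.792 to 0.881). These ratios compare 2 libraries and not the strains. Nr1h3 was at 0.825, Aif1 at 0.933, Pltp at 0.920 and Csf1r at 0.937 (0.873 to 1.01). With cells past 2 gates kept, the direction turned for Aif1 (4197 CPM in DA, 4052 CPM in LEW), Pltp (2367 and 2158 CPM) and Csf1r (1684 and 1678 CPM). The ratio for Id3 went the other way, at 1.74 (1.54 to 1.96), with 756 CPM in DA and 436 CPM in LEW. The summed gate genes again stood lower in DA, at 33990.1 CPM against 47066 CPM, with Cd163 at 854 CPM in DA and 894 CPM in LEW.

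In Kupffer cells of TLH against Kupffer nuclei, 7 genes were higher in cells with TMM scaling, and Csf1r was not called. This comparison also differs in chemistry. The study's text describes additional rats for the nuclei, while the library names repeat the animal numbers of the TLH libraries, so whether the rats differ is not settled. Of 4574 genes tested, 60% were called (32.1% higher in cells, 27.9% lower). Scaling bears on it: the median log2 fold change of all genes was 0.16 with TMM and −0.65 with library totals only, and the share of calls that were higher in cells went from 53.5% to 28.1%. Changes are therefore best read relative to each other.

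Aif1 was at 444, 673, 464 and 713 CPM in Kupffer nuclei of DA-1, DA-2, LEW-1 and LEW-2, against 1349 to 2695 CPM in cells. Nuclei and cells did not overlap, and the level was 5.60-fold higher in cells (log2 fold change 2.49, SE 0.22, edgeR adjusted p = 3.58e-08). Vsig4 was at 478, 972, 329 and 526 CPM in nuclei and 883 to 1631 CPM in cells (log2 fold change 1.81, SE 0.29, edgeR adjusted p = 5.83e-05). These were the 2 members called in all 19 alternatives, with ranges of 1.67 to 2.98 for Aif1 and 0.99 to 2.45 for Vsig4.

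Clec4f was at 1281, 1915, 1063 and 2139 CPM in nuclei (log2 fold change in cells over nuclei 1.32, SE 0.22, edgeR adjusted p = 4.83e-05), and Pltp at 427, 733, 464 and 543 CPM (1.20, SE 0.24, edgeR adjusted p = 0.000333). Both calls were lost with library totals only, at 0.50 and 0.38. Cd5l was at 1946, 3067, 2763 and 2734 CPM in nuclei, overlapping with the 1916 to 3094 CPM of cells. Its estimate was 0.60 with TMM (SE 0.18, edgeR adjusted p = 0.00793) and turned to −0.22 with library totals only. The estimates of Nr1h3 (0.68, adjusted p = 0.0178) and Id3 (0.66, adjusted p = 0.0344) likewise turned to −0.13 and −0.16. Cd5l, Nr1h3 and Id3 also lost their calls without any 1 of the 4 TLH libraries, where adjusted p ran from 0.1 to 0.212 for Cd5l, 0.114 to 0.287 for Nr1h3 and 0.0614 to 0.391 for Id3.

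Csf1r had the lowest ratio of cells to nuclei among the 8. It was at 1264, 2184, 1565 and 1392 CPM in Kupffer nuclei against 719 to 823 CPM in TLH cells, without overlap. Immune-enriched Kupffer cells, on the same version 3 chemistry as the nuclei, held 1745 CPM in DA and 1862 CPM in LEW, inside the range of the nuclei. The 8 genes together were also higher there, at 23769 and 28531 CPM against 8040 to 12791 CPM in TLH Kupffer cells. The part of chemistry in the Csf1r levels was not tested. The TMM estimate was −0.36 (SE 0.19, 95% interval −0.77 to 0.05, edgeR adjusted p = 0.115), and with library totals only it was −1.18 (adjusted p = 5.51e-05). It was called lower in cells without any 1 of the 4 TLH libraries (−0.66 to −0.60, adjusted p = 0.0212 to 0.0321), and its sign turned without nuclei DA-2 (0.04), without a filter on low counts (0.13) and with a looser gate in nuclei (0.14). Of 33 pathway genes 7 were higher in cells and 14 lower with TMM (32.1% and 27.9% of all genes), against 3 and 24 with library totals only. The higher ones were led by Spi1 (2.33), Tgfb1 (2.13), Cd68 (2.05), Folr2 (1.5) and Apoe (1.18). The lower ones were led by Cd38 (−2.89), Tgfbr2 (−2.62), Smad7 (−2.59), Zeb2 (−2.42) and Slc11a1 (−2.42). The dissociation-response genes summed to 3150.0 to 9254 CPM in Kupffer nuclei and 382 to 1411 CPM in TLH Kupffer cells, and their part in these values was not tested.

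**Figure D3:**
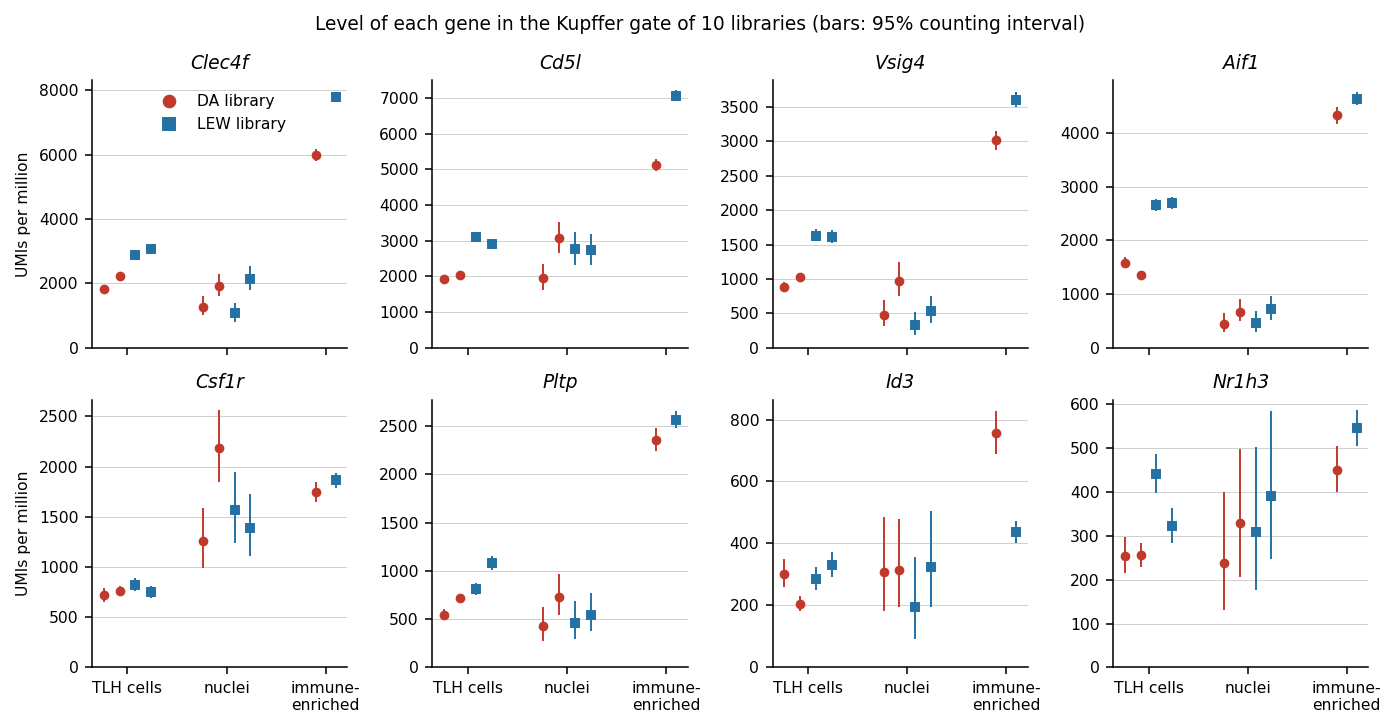
Level of each of the 8 genes in the Kupffer gate (CPM, linear axis from 0, with its own range for each gene) in the TLH, nuclei and immune-enriched libraries, 1 point per library with 95% counting intervals as bars. Csf1r is the gene whose 4 nuclei values, from 1264 to 2184 CPM, all lie above its TLH values, and the nuclei values of Aif1, from 444 to 713 CPM, all lie below its TLH values.

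The Visium sections place the genes along the lobule, which runs from the central vein to the portal tract. The 2437 spots of section A and 2404 spots of section B were ordered by the difference between periportal genes such as Hal and Sds and pericentral genes such as Glul and Cyp2e1, and cut into 5 groups of equal size. Cd5l went from 52.9 CPM in the most pericentral group of section A through 52.7, 70.3 and 92.6 to 124 CPM in the most periportal group, and in section B it went through 56.1, 60.6, 88.6, 102 and 139 CPM. The ratio of the last to the first group was 2.35 (95% counting interval 2.08 to 2.66) and 2.48 (2.20 to 2.80). With 2 sections and spots that share a slide there is no test between positions, and the intervals cover counting error only. Spots hold many cells, and more Kupffer cells and more RNA per Kupffer cell cannot be told apart in them.

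Vsig4 had ratios of 2.26 (1.90 to 2.68) and 2.37 (2.01 to 2.81) in sections A and B, and Clec4f of 1.85 (1.70 to 2.02) and 1.72 (1.59 to 1.87). Csf1r followed with 1.62 and 1.53, Pltp with 1.53 and 1.60, and Aif1 with 1.26 (1.07 to 1.48) and 1.40 (1.20 to 1.64). These 6 genes were thus higher towards the portal tract in both sections. The summed Kupffer gate genes did the same, from 381 to 760 CPM in section A and from 397 to 904 CPM in section B. The summed Lyz2 myeloid markers were highest in the most pericentral group, at 673 CPM in section A and 804 CPM in section B, lower in the middle groups (385 to 433 CPM over both sections) and at 551 and 534 CPM in the most periportal group. Their part in the levels of Aif1 and Csf1r was not tested. Id3 and Nr1h3 did not follow, with ratios of 1.01 (0.871 to 1.17) and 0.832 (0.721 to 0.959) for Id3 and 0.906 (0.834 to 0.985) and 0.882 (0.812 to 0.958) for Nr1h3.

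**Figure D4:**
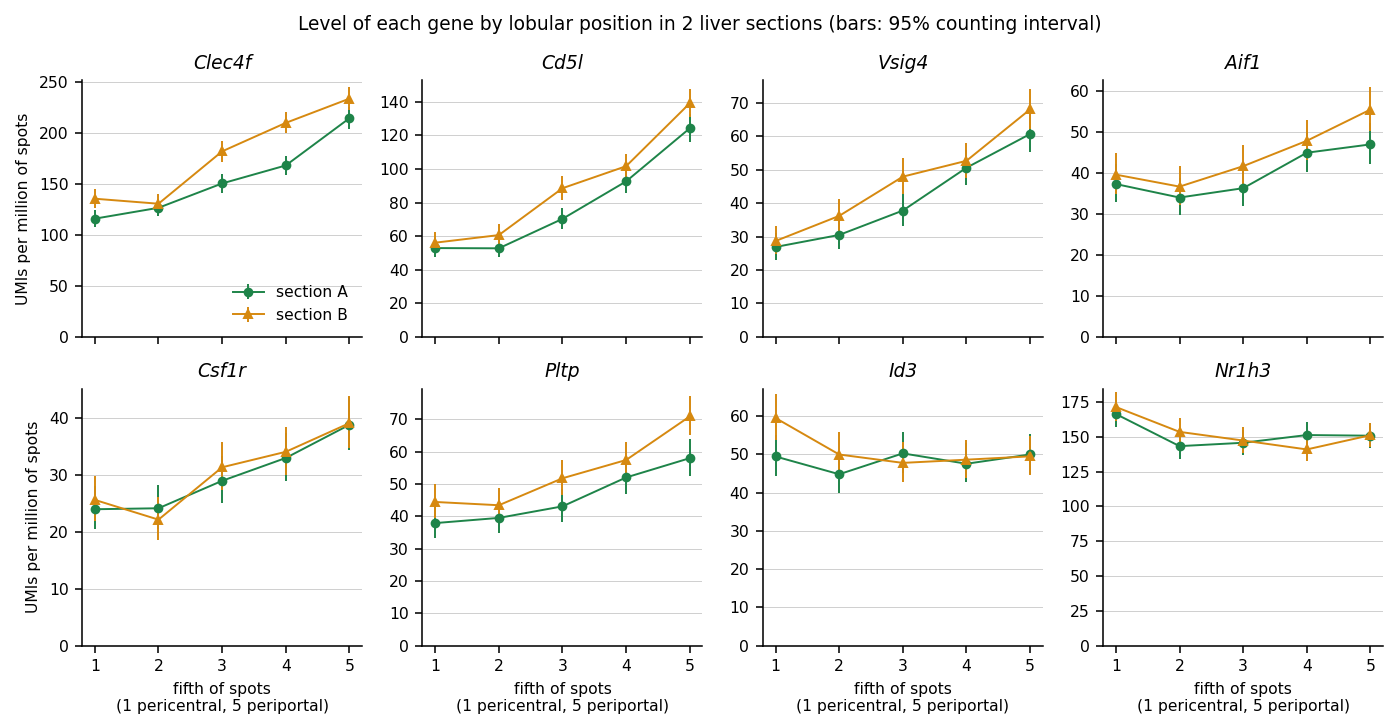
Level of each of the 8 genes (CPM) in 5 equal groups of Visium spots ordered from pericentral to periportal, 1 line per section of Wistar liver, with 95% counting intervals. Clec4f, Cd5l, Vsig4, Csf1r, Pltp and Aif1 end higher than they start in both sections, while Nr1h3 ends lower, at 151 CPM in each section.

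Ordered instead by the level of the 5 gate genes, spots in the group with the highest level had 2.62 and 3.31 times the Cd5l of the group with the lowest level in sections A and B. Vsig4 had 2.33 and 2.76 times, Clec4f 2.19 and 2.37 times, Csf1r 2.21 and 2.30 times, Aif1 2.10 and 2.11 times and Pltp 1.73 and 2.34 times. Id3 was at 1.21 (1.03 to 1.42) and 1.09 (0.930 to 1.28), and Nr1h3 at 1.03 (0.948 to 1.13) and 1.01 (0.922 to 1.1). Other markers moved with this order too. From the lowest to the highest group the Lyz2 myeloid markers went from 395 to 627 CPM in section A and from 438 to 588 CPM in section B. Periportal genes went from 5015 to 6032 CPM and from 4991 to 6306 CPM, and pericentral genes from 4987 to 3703 CPM and from 5505 to 3783 CPM. Their part in the ratios was not tested. Across the spots of a section the Pearson correlation of each gene with the gate genes was low, from 0.02 for Nr1h3 in section A to 0.34 for Cd5l in section B. Nr1h3 had UMIs in 82.7% of the spots of section A, and Cd5l in 60.2% of those of section B. What sets the correlations was not tested.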

How the data were processed

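Single cells, nuclei and Visium spots of rat liver were counted as UMIs per gene with 10x Genomics Cell Ranger 3.1.0 and Space Ranger 1.1.0, per the submitters' processing notes, on a custom rat reference. The values are whole-number UMI counts as deposited by the authors, not normalized, and the cell and nuclei tables hold barcodes above a floor (lowest total 325 to 588 UMIs by library). The TLH and immune-enriched tables were deposited as bare matrices, and their genes were named from the gene list of the nuclei tables, which has the same number of rows (32883). From these counts the following was computed.

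Barcodes were kept at a minimum of 1500 UMIs in TLH DA-1, 2000 in the other TLH libraries and 1000 elsewhere, and at no more than 30%, 20%, 40% and 40% mitochondrial UMIs in TLH DA-1, DA-2, LEW-1 and LEW-2, 50% in immune-enriched cells and 10% in nuclei. The study's text gives 1500 UMIs for LEW, which left 12124 and 7857 cells. The limit of 2000 left 5457 and 3844 and, over the 4 TLH libraries, the 23036 cells that the study kept. Kept barcodes ranged from 1163 to 7112 per library. Nuclei libraries shared 8 to 24 barcodes per pair, and barcodes of the other libraries were not used here.

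Cells were gated by marker genes, and cells past 2 gates were left out in place of a doublet caller. A class was Lyz2 myeloid with UMIs of 3 of 6 genes including Lyz2 and 0.15% of UMIs. Endothelial cells needed 4 of 10 genes and 0.15%, and mesenchymal cells 5 of 10 genes and 0.3%. Hepatocytes had 3% of UMIs from 9 genes and fell short of the gene number of every gate, whatever the share of UMIs. They were thus chosen to be low in the Kupffer gate genes. Hepatocyte genes formed no gate, so a Kupffer cell joined to a hepatocyte was not left out as past 2 gates. UMIs were summed per library and class and tested over all genes with edgeR 4.0.16 (quasi-likelihood, TMM, filter on low counts, Benjamini-Hochberg adjustment, calls at 0.05) in R 4.3.3, with the library as a block between classes, no covariate for strain, and strain as covariate for cells against nuclei. The SE is the log2 fold change divided by the root of F, and 95% intervals use its degrees of freedom. Visium ratios and single libraries carry counting intervals only. The 8 genes and the lists were chosen with earlier results of these data known. All 8 were named in every comparison, with up to 5 called pathway genes of largest change in each direction and the 3 most alike genes, of which 1 is not reported here. The edgeR step was tested on simulated data.

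Alternatives were DESeq2 1.42.0, its size factors in edgeR, no filter on low counts, a stricter gate (0.6%), a gate on the C1q genes alone, cells past 2 gates kept, the replicate block added or removed, genes high in hepatocytes left out, a limit of 1500 UMIs in LEW, each library left out, and, chosen after seeing the data, library totals only, a looser gate in nuclei (2 genes, 0.15%) and crossed replicate numbers. The labels do not say that same-numbered rats share a litter or day, and whether nuclei came from the rats of the TLH libraries is not settled, since the study's text describes additional rats while the library names repeat the same animal numbers. Promoters came from RefSeq GRCr8, which is not the build of the counts.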

Additional observations from a re-analysis of the deposited data

How the results depend on the processing

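Of the alternatives to the class comparisons of the 8 genes, all 112 kept direction and call against endothelial cells, all 112 against endothelial nuclei and all 104 against hepatocytes in TLH, 108 of 112 against Lyz2 myeloid cells (4 added a call of Id3), 107 of 112 against mesenchymal cells (5 lost that of Id3) and 97 of 104 against hepatocyte nuclei (7 lost that of Nr1h3). Causes of the changes given here were not tested. Strain estimates rest on 2 rats per strain, 24 to 50 Kupffer nuclei per library limit what nuclei can show, and the immune-enriched and Visium values have no test.

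The count of genes called moved by more than 1.5 times in these cases. Without the library block, calls against Lyz2 myeloid, endothelial and mesenchymal cells were 387, 1395 and 1358 in place of 607, 2456 and 2048, and DESeq2 gave 1441 and 1236 for the latter pair. Without a filter on low counts, 1205 genes in place of 600.0 were called against endothelial nuclei. For strain in TLH, 315 genes and 3 members became 126 genes with DESeq2, 553 genes and 5 members without a filter, and 75 to 263 genes with 0 to 1 members when 1 library was left out. For strain in nuclei, 0 genes became 3 with DESeq2, 27 without a filter, 3 with the stricter gate, 4 with the C1q gate, 1 with library totals only, 7 with the looser nuclei gate and 4 to 53 when 1 library was left out. For the difference of the strain effect between TLH and nuclei, 8 genes became 30 with DESeq2, 33 with 1 member without a filter, 1 with the stricter gate, 1 with the C1q gate, 17 with cells past 2 gates kept, 15 without hepatocyte genes, 1 with the limit of 1500 UMIs in LEW, 0 with the looser nuclei gate, and 0 to 72 genes with 0 to 1 members when 1 library was left out. For cells against nuclei, 2743 genes became 993 to 3108 when 1 library was left out (993 to 1025 without a TLH library), and 7 members became 3 with library totals only and 5 to 7 when 1 library was left out.

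With the replicate number as a block, strain in TLH gave 51 genes and 0 members, and strain in nuclei gave 53 genes and 0 members. The deviations of same-numbered rats correlated at −0.10 in TLH and 0.33 in nuclei. With 2 pairs each, whether the numbers pair the rats was not settled. With the LEW numbers crossed the block gave 662 genes and 5 members in TLH.

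Signs turned in these cases. For strain in TLH, Csf1r (−0.05) was at 0.011 with the stricter gate, 0.045 with the limit of 1500 UMIs in LEW, and −0.11 to 0.0088 when 1 library was left out. For strain in nuclei, Csf1r (0.17) was at −0.013 and Pltp (0.15) at −0.023 with the stricter gate, Pltp at −0.27 with the C1q gate and Clec4f (−0.05) at 0.032 with library totals only. When 1 nuclei library was left out, Clec4f ran from −0.46 to 0.50, Cd5l from −0.52 to 0.078, Aif1 from −0.44 to 0.19, Csf1r from −0.25 to 0.48, Pltp from −0.26 to 0.46 and Id3 from −0.086 to 0.60. For cells against nuclei, Csf1r (−0.36) was at 0.13 without a filter, 0.14 with the looser nuclei gate and −0.66 to 0.039 when 1 library was left out, and library totals only gave −0.22 for Cd5l, −0.16 for Id3 and −0.13 for Nr1h3. For the difference of the strain effect, Nr1h3 (−0.26) was at 0.14 with the stricter gate and Csf1r (−0.29) ran from −0.65 to 0.094 when 1 library was left out.

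In the immune-enriched Kupffer cells the C1q gate moved Clec4f in DA to 5264 CPM, Cd5l to 4503 CPM in DA and 6905 CPM in LEW, Vsig4 in DA to 2602 CPM and Csf1r in DA to 1590.5 CPM. With cells past 2 gates kept, Clec4f was at 5785 CPM in DA and 6770.3 CPM in LEW, and in LEW Cd5l was at 6049, Vsig4 at 3129.7, Aif1 at 4052, Csf1r at 1678, Pltp at 2158, Id3 at 597 and Nr1h3 at 493 CPM. With Visium spots cut into 3 groups, the ratio by position was 1.69 for Clec4f in section A. By Kupffer gene content it was 1.83 for Clec4f, 2.11 for Cd5l, 1.81 for Vsig4 and 1.68 for Aif1 in section A, and 1.92 for Clec4f, 2.51 for Cd5l, 2.32 for Vsig4 and 1.88 for Pltp in section B.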

Other observations

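Id3 was also found in lymphocytes of the immune-enriched libraries. T cells held 227 CPM (95 UMIs in 94 cells) in DA and 194 CPM (81 UMIs in 82 cells) in LEW, and B cells 98.2 CPM in DA and 152 CPM in LEW, while NK cells held 9.03 CPM in DA and 18.3 CPM in LEW. Clec4f had at most 1 UMI in T, B and NK cells of either library. The mesenchymal gate held 11 cells in each of these libraries, and in LEW these cells had 17 UMIs of Clec4f (649 CPM) and 13 of Aif1 (496 CPM), against 0 and 1 in DA. At 1000 UMIs per cell, 1 of the 11 LEW cells showed 7 of the 8 genes and 5 showed none. Nr1h3 was at 78.7 and 67.4 CPM in immune-enriched hepatocytes of DA and LEW, above the 14.4 and 15.6 CPM of endothelial cells. In the 4 TLH libraries Nr1h3 ranged from 103 to 112 CPM in hepatocytes and from 85.1 to 118 CPM in endothelial cells.

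In the Kupffer nuclei the gate genes themselves differed between libraries. Marco was at 5083 CPM in LEW-1 and at 1315, 1526 and 1885 CPM in DA-1, DA-2 and LEW-2, whereas Cd163 was at 3620 CPM in DA-1 and 1314 CPM in LEW-1. The gate needs either gene, and the 24 and 35 nuclei behind these values are few.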
